A study of Mus musculus with 12 samples.

Results

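The 41 genes described here are a set of cell cycle genes, taken by symbol from the 53465 genes counted in each library of a study of spinal cord glia. All 41 were found and all 41 passed the filter on low counts, which left 29361 genes for testing. They were sorted into 10 genes of DNA replication (S phase), 6 cyclins and kinases of G1 and the G1/S step, 23 mitotic genes (G2 and M) and 2 inhibitors of cyclin-dependent kinases (CDKs). RNA came from the brachial and thoracic spinal cord of C57BL/6 mice at postnatal day 7, and every mouse carried the reporters Aldh1L1-GFP and Olig2-tdTomato. After papain dissociation the cells were sorted by flow cytometry into a fraction labelled eGFP/tdTomato (both reporters), a fraction labelled eGFP and a fraction labelled tdTomato, with 4 libraries each, numbered 1, 2, 3 and 5. Aldh1l1 is a gene of astrocytes and Olig2 a gene of the oligodendrocyte lineage that some astrocytes also express. The labels call the libraries biological replicates but do not say how many animals each holds, whether a number marks a shared animal or litter, or how the tdTomato reporter was built.

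A cell enters the cycle when D cyclins with CDK4 or CDK6, and then E cyclins with CDK2, inactivate the retinoblastoma protein and free E2F factors, which switch on the genes that load helicases, make nucleotides and copy DNA. Genes of G2 and mitosis come on later, many of them through a promoter element named CHR that is bound by the DREAM, B-Myb and FoxM1 complexes. CDK inhibitors hold the kinases back, and in the first postnatal weeks both astrocytes and oligodendrocyte progenitors still divide while myelinating oligodendrocytes do not.

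Counts in genes per library ran between 23915784 and 30299452 with both reporters, between 12564767 and 27898597 with eGFP alone and between 25460920 and 36505583 with tdTomato alone. The share of reads outside genes was 57.1% in eGFP replicate 1 and lay between 21.2% and 57.1% over the 12 libraries. Raw counts of the 41 genes ranged between 24 (Aurkb in eGFP replicate 3) and 15281 (Ccnd2 in eGFP/tdTomato replicate 1). Astrocyte markers summed to 56150 CPM (counts scaled to the library total, with TMM factors) in the eGFP/tdTomato fraction, 46580 CPM with eGFP alone and 569 CPM with tdTomato alone. Markers of myelinating oligodendrocytes summed to 2517, 874 and 134800 CPM in the same order, and progenitor markers to 951, 312 and 4910 CPM. Aldh1l1 itself averaged 722, 406 and 3.69 CPM. The tdTomato fraction held both progenitor and myelinating transcripts, with the progenitor marker Pdgfra at 208 CPM.

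Stretches of 6 promoters are shown because the replication and mitotic classes, read separately in all comparisons, differ in how often they hold these letters. The sequences are RefSeq's, build GRCm38.p6, written 5′ to 3′ on the gene's strand. Capitals mark the CHR element (TTTGAA or TTCGAA), the CCAAT box (CCAAT) and the E2F site (TTTCCCGC, TTTGGCGC, TTTCGCGC or TTTGCCGC), each searched on both strands, with overlapping matches run together. The first 4 genes are mitotic: Top2a untangles DNA, Cdk1 is the kinase that drives mitosis, Mki67 coats mitotic chromosomes and Cdc20 activates the anaphase-promoting complex. Mcm5 and Mcm6 are subunits of the replicative helicase.
Top2a, chr11:99024190-99024309, minus strand: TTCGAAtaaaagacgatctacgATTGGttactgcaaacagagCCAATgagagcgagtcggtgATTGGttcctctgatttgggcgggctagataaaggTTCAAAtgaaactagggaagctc
Cdk1, chr10:69352939-69353052, minus strand: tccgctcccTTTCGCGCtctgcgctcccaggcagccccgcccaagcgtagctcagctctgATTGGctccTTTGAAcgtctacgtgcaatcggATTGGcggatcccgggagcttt
Mki67, chr7:135716460-135716579, minus strand: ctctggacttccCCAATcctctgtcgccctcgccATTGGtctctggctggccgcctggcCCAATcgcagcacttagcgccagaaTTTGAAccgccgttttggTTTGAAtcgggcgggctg
Cdc20, chr4:118437353-118437463, minus strand: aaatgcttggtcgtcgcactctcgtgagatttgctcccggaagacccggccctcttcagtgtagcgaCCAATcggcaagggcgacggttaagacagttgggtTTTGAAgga
Mcm5, chr8:75109349-75109468, plus strand: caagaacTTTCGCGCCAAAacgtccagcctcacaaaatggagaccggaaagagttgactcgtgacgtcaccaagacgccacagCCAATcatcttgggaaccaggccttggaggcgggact
Mcm6, chr1:128359706-128359825, minus strand: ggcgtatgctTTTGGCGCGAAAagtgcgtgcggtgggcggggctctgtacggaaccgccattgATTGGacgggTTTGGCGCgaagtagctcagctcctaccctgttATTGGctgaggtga

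RefSeq promoters were found for 34 of the 41 genes, each taken as a window of 300 bases around the start (250 bases before it and 50 after). The CHR letters were present in 16 of 20 mitotic promoters (80.0%), in 2 of 9 replication promoters (22.2%) and in 19.4% of 27025 promoters of all genes. The E2F letters were present in 1 of 20 mitotic promoters (5.0%), that of Cdk1 shown above, in 4 of 9 replication promoters (44.4%) and in 2.32% of all promoters. The CCAAT box was common in both classes, with 18 of 20 mitotic (90.0%) and 8 of 9 replication promoters (88.9%), against 37.9% of all. A match describes the letters in this window and not a bound site.

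Set against cells with eGFP, cells with both reporters had higher levels of 8 of the 23 mitotic genes in the main edgeR fit. No replication gene passed in that fit, while edgeR with the replicate number as a block called Rrm2 and Mcm5 higher. The 8 calls rest on few libraries: 3 genes of the class were called without eGFP replicate 5, 11 without tdTomato replicate 5, and 1 without the libraries of number 1 or those of number 5. Of the 41 genes these 8 rose, where 0.814% of the 29361 genes tested rose, and 1 fell, the CDK inhibitor Cdkn1a, where 1.67% of genes fell. The 8 were Top2a, Cdk1, Ccna2, Ccnb1, Cdca3, Ube2c, Nusap1 and Prc1, and the calls are from edgeR's quasi-likelihood test with Benjamini-Hochberg adjusted p under 0.05. All 23 mitotic genes had a positive log2 fold change, with a median of 1.00 and a range of 0.53 to 1.53, against a median of -0.02 over all genes. In 21 of the 23 the 4 eGFP/tdTomato libraries all lay above the 4 eGFP libraries, where 3.75% of all genes did. Without TMM factors that held for 10 of the 23 and for 2.29% of all genes, so the statements on overlap here hold for the TMM scale, on which eGFP replicate 1 has a factor of 1.44. In sorted bulk samples, fewer cells in cycle and less of these RNAs per cell cannot be told apart.

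**Figure D1:**
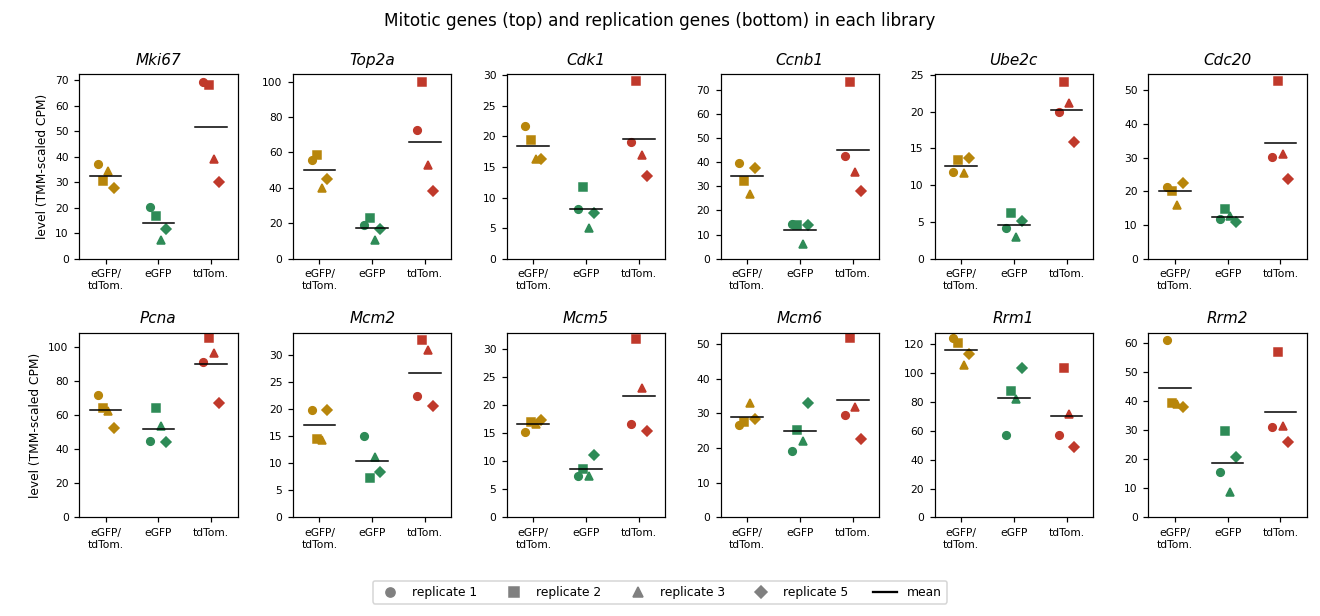
Levels in TMM-scaled CPM (y axis, linear from 0, with its own scale per gene) of 6 mitotic genes in the top row and 6 replication genes in the bottom row, in the eGFP/tdTomato, eGFP and tdTomato fractions (x axis). Each point is 1 library, its shape gives the replicate number and the line is the mean of 4. Top2a, Cdk1 and Ccnb1 were lowest in the eGFP fraction, with no overlap with either other fraction, whereas Mcm6 overlapped between all fractions.

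Among the mitotic genes, Top2a (chr11:98992943-99024189, minus strand, GRCm38) had 55.8, 58.5, 39.9 and 45.1 CPM in the eGFP/tdTomato libraries 1, 2, 3 and 5, against 18.9, 23.1, 10.3 and 16.9 CPM in the eGFP libraries. Every eGFP/tdTomato library lay above every eGFP library, a log2 fold change of 1.53 ± 0.29 (SE) with edgeR adjusted p = 0.00874. Leaving out all libraries numbered 1, or all numbered 5, ended the call (0.0731 and 0.057). Ccnb1, the B cyclin that partners CDK1, had 39.7, 32.3, 26.7 and 37.7 CPM in the eGFP/tdTomato fraction and 14.5, 13.8, 5.91 and 13.8 CPM in the eGFP fraction. The fractions did not overlap (log2 fold change 1.51 ± 0.32, edgeR adjusted p = 0.0152). Without eGFP/tdTomato replicate 5 its adjusted p was 0.0503.

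Cdk1 itself had 21.6, 19.3, 16.3 and 16.4 CPM in the eGFP/tdTomato fraction and 8.08, 11.8, 5.08 and 7.43 CPM in the eGFP fraction. Its log2 fold change was 1.19 ± 0.28 with edgeR adjusted p = 0.031, but leaving out any 1 of 7 single libraries of these fractions raised that to between 0.0547 and 0.165. Ube2c, the ubiquitin-conjugating enzyme of the anaphase-promoting complex, had 11.8, 13.4, 11.6 and 13.7 CPM in the eGFP/tdTomato fraction and 4.18, 6.19, 3.01 and 5.17 CPM in the eGFP fraction. It differed by 1.45 ± 0.23 on the log2 scale (edgeR adjusted p = 0.00262), and of the 8 genes it alone kept its call under every setting tried. Mki67, which encodes the Ki-67 protein used to stain cycling cells, had 37.3, 30.7, 34.6 and 27.7 CPM in the eGFP/tdTomato fraction and 20.4, 16.7, 7.45 and 11.8 CPM in the eGFP fraction. The fractions did not overlap, but the gene stood just outside the threshold (1.21 ± 0.31, edgeR adjusted p = 0.0559). It was called under 8 of 24 other settings, with DESeq2 (adjusted p = 0.00986), limma-voom (0.03) and the share of reads outside genes as a covariate in edgeR (0.0264) among them.

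Ccna2, the cyclin of S phase and G2, rose by 1.10 ± 0.20 (edgeR adjusted p = 0.00583, and 0.0508 when eGFP replicate 5 was left out). Prc1, which bundles the microtubules of the central spindle, rose by 1.14 ± 0.24, the spindle protein Nusap1 by 1.09 ± 0.27 and Cdca3, a trigger of mitotic entry, by 1.00 ± 0.25. These 3 calls were near the threshold (edgeR adjusted p = 0.0152, 0.0455 and 0.0474) and were each lost when single libraries were left out. The 15 mitotic genes not called included the kinases Aurka, Aurkb and Plk1 and the checkpoint genes Bub1 and Bub1b. Their log2 fold changes ran between 0.53 (Kif23) and 1.21 (Mki67).

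None of the 10 replication genes was called by the main edgeR fit in this comparison, and 3 had an unadjusted p under 0.05. DESeq2 called Rrm2 and Mcm5 (adjusted p = 0.0117 and 0.00882), and limma-voom called Rrm2 (0.0257). Without the filter or with a stricter one, edgeR called 1 of the pair. With the replicate number as a block, edgeR called Rrm2 and Mcm5 (adjusted p = 0.00885 and 0.0266). It also called Mcm5 with the share of reads outside genes as a covariate (0.0491) and with the compared fractions alone (0.0426). All 10 log2 fold changes were positive, with a median of 0.39, which was 0.22 without eGFP replicate 1, and a range of 0.09 (Mcm4) to 1.25 (Rrm2). Rrm2, the regulated subunit of ribonucleotide reductase, had 61.0, 39.6, 39.0 and 38.1 CPM in the eGFP/tdTomato fraction and 15.5, 29.6, 8.84 and 20.7 CPM in the eGFP fraction. The fractions did not overlap, and the difference was 1.25 ± 0.33 with edgeR adjusted p = 0.0664. Mcm5 had 15.3, 17.0, 16.8 and 17.4 CPM in the eGFP/tdTomato fraction and 7.36, 8.63, 7.45 and 11.2 CPM in the eGFP fraction, again without overlap, at 0.94 ± 0.24 and edgeR adjusted p = 0.0511.

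Other replication genes were closer together. Mcm2 had 19.8, 14.5, 14.3 and 19.8 CPM in the eGFP/tdTomato fraction and 15.1, 7.34, 11.2 and 8.34 CPM in the eGFP fraction (0.71 ± 0.25, edgeR adjusted p = 0.229). Pcna, the sliding clamp of the replication fork, had 71.7, 64.2, 62.6 and 52.7 CPM in the eGFP/tdTomato fraction and 44.7, 64.0, 53.8 and 44.3 CPM in the eGFP fraction, and the ranges overlapped. Mcm6 overlapped as well, with 26.5, 27.6, 32.9 and 28.3 CPM in the eGFP/tdTomato fraction and 19.2, 25.3, 21.9 and 33.0 CPM in the eGFP fraction. In 4 of the 10, Mcm5, Mcm7, Rrm1 and Rrm2, the fractions did not overlap, where the eGFP/tdTomato libraries of 3.75% of all genes lay wholly above. The counts depend on the test used: DESeq2 called 2 replication genes and 13 mitotic genes higher.

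The other genes of these processes, from lists chosen by function, were read beside the members. In this comparison 0.814% of all genes tested rose and 1.67% fell, the shares to set beside each list. Of 47 further genes of the spindle, kinetochore and cytokinesis, 5 rose and 0 fell, and all 47 log2 fold changes were positive (median 0.77). Those with the largest change were the mitotic kinase Pbk (1.45 ± 0.25), the phosphatase subunit Cdca2 (1.38 ± 0.32) and the cytokinesis regulator Racgap1 (1.23 ± 0.26). Of 30 further genes of origin licensing and replication, 1 rose, Gmnn, whose product geminin blocks relicensing of origins (1.14 ± 0.28, edgeR adjusted p = 0.039), and 0 fell. By edgeR none of 13 Rb and E2F genes and none of 7 genes of the B-Myb, FoxM1 and MuvB complexes was called, with 4 and 1 at an unadjusted p under 0.05. Among 14 other cyclins, kinases and phosphatases 2 rose, the CDK1-activating phosphatase Cdc25b (1.09 ± 0.25) and its opponent, the kinase Wee1 (0.84 ± 0.20).

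Markers of other cells moved in the same comparison. Of 13 markers of myelinating oligodendrocytes 8 were higher in the eGFP/tdTomato fraction, as were 5 of 12 progenitor markers. Over all genes tested, 0.814% were higher and 1.67% lower. The progenitor sum ran between 634 and 1309 CPM in the eGFP/tdTomato fraction and between 214 and 473 CPM in the eGFP fraction. Olig1 made up most of the mean sum in both fractions. The 5 were Olig1, Sox10, Gpr17, Bcas1 and Olig2, whose reporter was used in the sort and which some astrocytes express. The sum is therefore not a measure of progenitors alone. All 9 ependymal markers were lower (sums of 23.7 ± 3.74 CPM with both reporters and 324 ± 116 CPM with eGFP, SD, n = 4 each), as were 7 of 13 microglial markers (82.4 to 104.9 CPM and 128.9 to 1131 CPM) and 5 of 9 mural and fibroblast markers (358.7 to 570.1 CPM and 793 to 2115 CPM). The defining progenitor marker Pdgfra averaged 7.80 CPM in the eGFP/tdTomato fraction and 13.2 CPM in the eGFP fraction, while Cspg4 averaged 12.7 and 7.00 CPM. No marker list was at 0 in either fraction, and the part of these cells in the differences between mitotic genes was not tested.

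**Figure D2:**
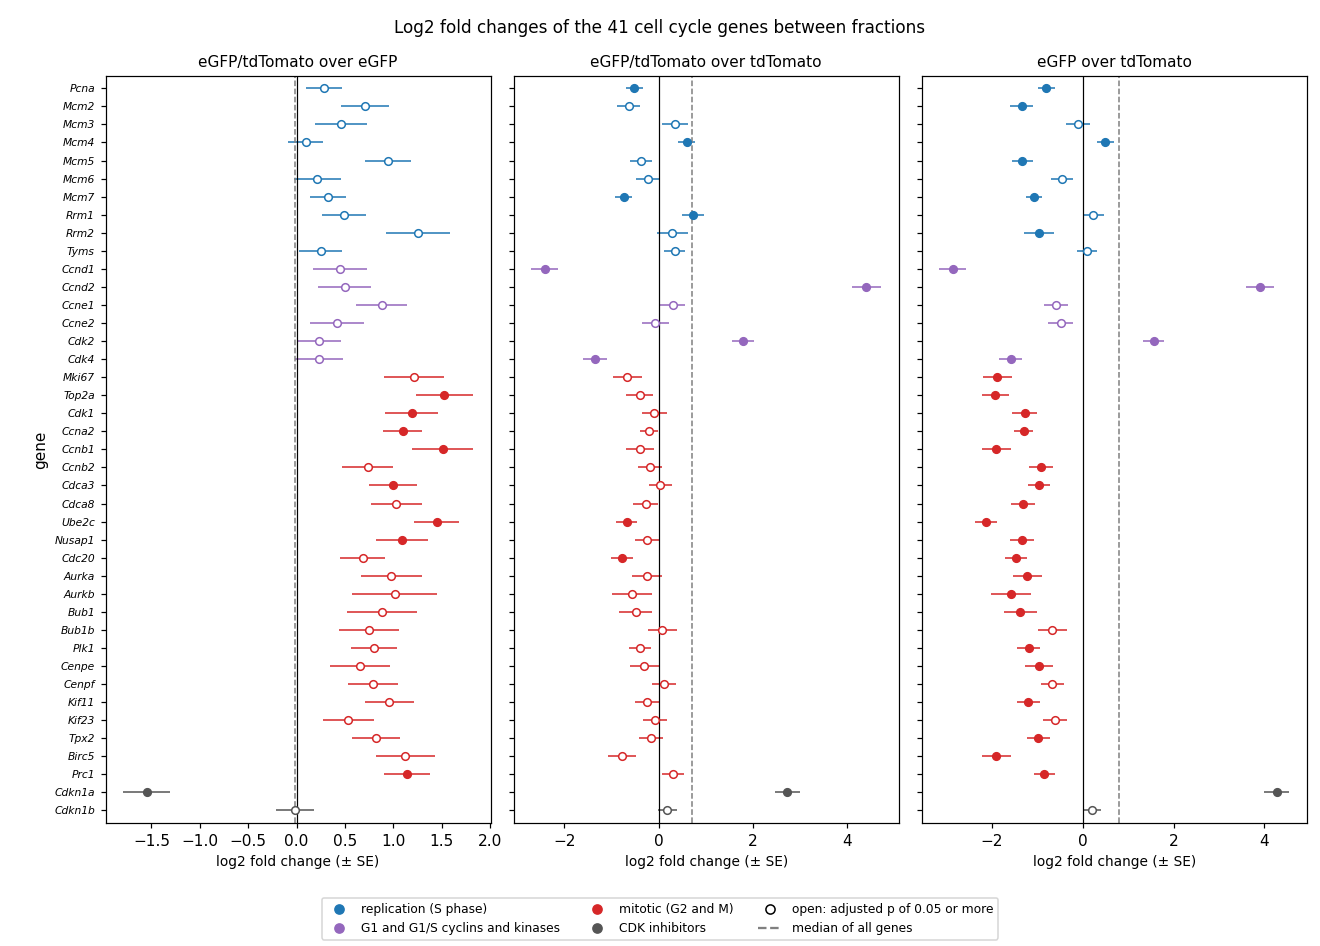
Log2 fold changes (x axis, ± SE, with a scale of its own in each panel) of the 41 genes (y axis) for eGFP/tdTomato over eGFP, eGFP/tdTomato over tdTomato and eGFP over tdTomato. Colours give the class, filled points have an edgeR adjusted p under 0.05 and the dashed line is the median of all genes tested. Mitotic genes lie right of 0 in the first panel, mostly left of 0 and open in the second, and left of 0 in the third.

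Against the tdTomato fraction, cells with both reporters had calls among the members about as often as among all genes, and the largest differences were those of Ccnd2, Cdkn1a and Ccnd1. Of the 41 genes, 5 rose in the eGFP/tdTomato fraction, where 16.8% of all genes tested rose, and 6 fell, where 12.4% of all genes fell. The 5 were Mcm4, Rrm1, Ccnd2, Cdk2 and Cdkn1a and the 6 were Pcna, Mcm7, Ccnd1, Cdk4, Ube2c and Cdc20. The shares of members called, 12.2% and 14.6%, were near those of all genes. The background moved with the processing: over all genes the median log2 fold change was 0.70 under TMM scaling and 0.57 under DESeq2's size factors, 0.12 over genes with at least 1 CPM in 4 libraries, 0.25 with the compared fractions alone and 0.26 with the covariate.

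Of the 23 mitotic genes, 2 fell (8.70%, where 12.4% of all genes fell) and 0 rose, and for the same 2 the ranges of the libraries did not overlap, where 14.8% of all genes lay wholly below. Of the 23, 19 had a negative log2 fold change, with a median of -0.25. That median was -0.36 under DESeq2's size factors, -0.42 with the compared fractions alone, -0.09 without tdTomato replicate 2 and -0.50 without eGFP replicate 5. Ube2c had 19.9, 24.1, 21.2 and 15.8 CPM in the tdTomato libraries, all above the eGFP/tdTomato libraries (-0.68 ± 0.23, edgeR adjusted p = 0.0336). Without tdTomato replicate 2 that adjusted p was 0.11. Cdc20 had 21.3, 20.2, 16.04 and 22.5 CPM in the eGFP/tdTomato libraries and 30.2, 52.8, 31.01 and 23.6 CPM in the tdTomato libraries, a difference of -0.78 ± 0.23 (edgeR adjusted p = 0.0177), which was 0.0928 without tdTomato replicate 2. That library had the highest CPM of the 4 for Top2a (99.8 CPM against 72.5, 52.7 and 38.1 CPM in replicates 1, 3 and 5) and for Ccnb1 (73.1 CPM against 42.6, 35.8 and 28.1 CPM). Mki67 had 69.4, 68.4, 39.3 and 30.2 CPM in the tdTomato libraries and overlapped with the eGFP/tdTomato fraction (-0.67 ± 0.31, edgeR adjusted p = 0.119). Mki67 was called lower under 7 of 24 other settings and Birc5, not called in the main fit, under 11. Ube2c kept its call under 14. Cdk1, with 19.0, 29.0, 17.0 and 13.5 CPM in the tdTomato libraries, differed by -0.09 ± 0.27.

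Of the 10 replication genes 2 rose and 2 fell, near the shares of all genes. The libraries of 2 lay wholly above tdTomato, where those of 20.6% of all genes did, and those of 2, Mcm2 and Mcm7, wholly below, where those of 14.8% did. Rrm1, the large subunit of ribonucleotide reductase, was higher with both reporters (105.5 to 124 CPM) than with tdTomato (48.8 to 103.3 CPM), at 0.72 ± 0.23 and edgeR adjusted p = 0.0275. Mcm4 was higher as well (0.59 ± 0.18, edgeR adjusted p = 0.0198), whereas Mcm7, another subunit of the same helicase, was lower (-0.75 ± 0.18, edgeR adjusted p = 0.00495). Pcna, with 91.0, 105.4, 96.5 and 67.2 CPM in the tdTomato libraries, was lower with both reporters and only just called (-0.52 ± 0.18, edgeR adjusted p = 0.0467). The Mcm7 call held under every setting tried, while those of Mcm4, Rrm1 and Pcna were each lost without single libraries, with adjusted p up to 0.296, 0.239 and 0.155. Mcm2 was not called in the main fit but was called lower under 13 of 24 other settings. Of those settings, Mcm4 kept its call under 12, Pcna under 12 and Rrm1 under 10. The median log2 fold change of the 10 was 0.03 and turned to -0.09 under DESeq2's size factors, so no direction is given for the class.

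Among the other lists, 2 of 47 spindle genes rose and 4 fell, and 2 of 30 replication genes rose and 2 fell. Both lists were called less often in either direction than all genes tested, of which 16.8% rose and 12.4% fell. Of 13 Rb and E2F genes 5 rose and 5 fell, more often than all genes. The spindle genes with the largest change were Anln, a scaffold of the contractile ring, at -2.88 ± 0.25, securin (Pttg1) at 1.08 ± 0.30 and the kinesin Kif18a at 1.02 ± 0.21. Anln lay far below the median of its list. Whether its value reflects cell division or the type of cell sorted was not tested. In the replication list, values included those of Rfc4, a subunit of the clamp loader (-1.06 ± 0.22), and Gins2, a subunit of the helicase complex (0.80 ± 0.27). E2f8, an atypical E2F that represses, was lower, at -2.60 ± 0.82, the repressor E2f6 was higher by 2.44 ± 0.32 and Tfdp1, the dimerisation partner of E2Fs, was lower, at -1.66 ± 0.19. Of the 7 genes of the B-Myb, FoxM1 and MuvB complexes 1 rose (Lin52, 1.80 ± 0.22) and 2 fell (Rbbp4, -0.84 ± 0.29, and Lin54, -0.66 ± 0.21). Of the 14 other cyclins, kinases and phosphatases 4 rose and 2 fell, with Wee1 at 1.96 ± 0.20 and Cdc25b at 1.49 ± 0.26. All 15 astrocyte markers were higher with both reporters, and 12 of 13 myelin and 9 of 12 progenitor markers were lower. Of the mural and fibroblast markers 8 of 9 were higher (summed means of 460 CPM with both reporters and 15.2 CPM with tdTomato), as were 8 of 9 ependymal markers (23.7 and 4.85 CPM), while 4 of 9 neuronal markers were lower and 1 was higher (52.3 and 535 CPM). The part of these cells in the differences was not tested. Foxm1 and Mybl2, which switch on mitotic genes in G2 and are named after their values were seen, were not called in any comparison, at means under 10 CPM in every fraction.

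The eGFP fraction set against the tdTomato fraction had lower levels of nearly all mitotic genes. Of the 23, 20 fell and 0 rose, where 14.9% of all genes tested fell and 20.4% rose. The 3 not called were Bub1b, Cenpf and Kif23, which also had negative log2 fold changes. The median was -1.28, against 0.79 over all genes, and that over all genes was 0.18 over genes with at least 1 CPM in 4 libraries, 0.10 with the covariate and 0.28 without eGFP replicate 1. In 19 of the 23 the eGFP libraries all lay below the tdTomato libraries, where 14.3% of all genes did (13 of the 23 and 11.3% of all genes without TMM factors). Top2a differed by -1.93 ± 0.30 (edgeR adjusted p = 9.77e-05), Mki67 by -1.88 ± 0.32 (0.000221), Ccnb1 by -1.91 ± 0.32 (0.000205) and Ube2c by -2.13 ± 0.24 (3.64e-06). Between 17 and 23 mitotic genes were called lower when any 1 library was left out, and between 15 and 21 without the 3 libraries of a number. The comparisons share their libraries, so the 3 sets of values are not independent of each other.

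Of the 10 replication genes 5 fell between the same fractions, namely Pcna, Mcm2, Mcm5, Mcm7 and Rrm2, and 1 rose, Mcm4. Among all genes tested, 14.9% fell and 20.4% rose. The eGFP libraries of Pcna, Mcm2, Mcm5 and Mcm7 lay wholly below tdTomato, where 14.3% of all genes did. Those of Mcm4 lay wholly above, where 19.6% of all genes did. Without TMM factors 3 of the 10 lay wholly below, as did 11.3% of all genes. The median log2 fold change of the 10 was -0.62. Mcm2, with 22.4, 32.8, 30.8 and 20.6 CPM in the tdTomato libraries, differed by -1.35 ± 0.25 (edgeR adjusted p = 0.000559), and Mcm5, with 16.7, 31.8, 23.1 and 15.3 CPM there, by -1.33 ± 0.24 (0.000409). Rrm2, with 31.3, 56.96, 31.4 and 25.9 CPM in the tdTomato libraries, overlapped with the eGFP fraction and was not called without tdTomato replicate 2 (-0.96 ± 0.33, edgeR adjusted p = 0.0338, and 0.138 without that library). Mcm6, with 29.6, 51.7, 31.8 and 22.5 CPM in the tdTomato libraries, was not called (-0.45 ± 0.24, edgeR adjusted p = 0.16). Mcm4 was near the threshold, at 0.50 ± 0.18 and edgeR adjusted p = 0.0407, and was not called under DESeq2's size factors (0.0564). It kept its call under only 6 of 24 other settings, and its edgeR adjusted p was 0.395 without the libraries of number 3.

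In the functional lists 24 of 47 spindle genes fell and 1 rose, and 8 of 30 replication genes fell and 1 rose. Of all genes tested, 14.9% fell and 20.4% rose between these fractions, the shares to set beside each list and marker count below. Anln (-3.64 ± 0.26), the condensin subunit Ncapg (-2.25 ± 0.34) and the spindle protein Ckap2 (-1.76 ± 0.25) led the spindle list. Anln again lay far below the median of that list, and the part of cell type in its value was not tested. Gmnn (-1.87 ± 0.28), the clamp loader subunit Rfc4 (-1.50 ± 0.22) and thymidine kinase Tk1 (-1.22 ± 0.26) led the replication list. Of the Rb and E2F genes 4 rose and 6 fell, with E2f8 (-3.35 ± 0.85), E2f3 (-2.42 ± 0.24) and Tfdp1 (-2.28 ± 0.20) the largest. E2f8 varied within the eGFP fraction, at 5.57, 0, 0.188 and 1.55 CPM in replicates 1, 2, 3 and 5. Of the B-Myb, FoxM1 and MuvB genes 1 rose (Lin52, 1.30 ± 0.22) and 2 fell (Lin54, -0.80 ± 0.21, and Rbbp4, -0.78 ± 0.29). Of the other cyclins, kinases and phosphatases 2 rose and 5 fell, among them the mitotic phosphatase Cdc25c (-1.31 ± 0.44) and the CDK1-inhibiting kinase Pkmyt1 (-1.27 ± 0.46), which fell, and Wee1 (1.12 ± 0.20), which rose. All 13 myelin and 11 of 12 progenitor markers were lower and all 15 astrocyte markers higher in the eGFP fraction, as were 9 of 13 microglial, all 9 mural and fibroblast and all 9 ependymal markers, and their part in the mitotic differences was not tested.

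Summed over the class, replication genes reached 408 ± 30.9 CPM in the eGFP/tdTomato fraction, 302 ± 43.2 CPM in the eGFP fraction and 389 ± 100.3 CPM in the tdTomato fraction (SD, n = 4 each). The mitotic genes summed to 414 ± 46.5, 201 ± 36.2 and 514 ± 167 CPM in the same order. The 3 largest genes, Rrm1 and Pcna among them in every fraction, held 57.6%, 61.9% and 51.4% of the replication sum in that order. In the mitotic class the 3 largest held 28.1%, 24.3% and 31.6%. The mitotic sums ran between 353 and 467 CPM with both reporters and between 154 and 235 CPM with eGFP, so these fractions did not overlap on this scale, but without TMM factors they did (309.6 to 466.9 CPM with both reporters and 147 to 318.7 CPM with eGFP). The tdTomato libraries spread between 340 and 732 CPM. The replication sums of the eGFP/tdTomato libraries (384 to 452 CPM) lay above those of the eGFP libraries (250.3 to 343 CPM) and within the spread of the tdTomato libraries (282 to 519 CPM). Without TMM factors the replication sums overlapped between eGFP/tdTomato (341.6 to 452.2 CPM) and eGFP (269.4 to 380.8 CPM) as well. The ratio of the replication sum to the mitotic sum, which does not depend on the scaling between libraries, was 0.918 to 1.10 with both reporters, 1.12 to 1.83 with eGFP and 0.646 to 0.916 with tdTomato. The ranges did not overlap but nearly touched between the fractions. On the TMM scale, mean levels with both reporters lay between those of the other fractions for 19 of the 23 mitotic and 5 of the 10 replication genes, and were the highest of the 3 for the remaining 4 and 5.

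**Figure D3:**
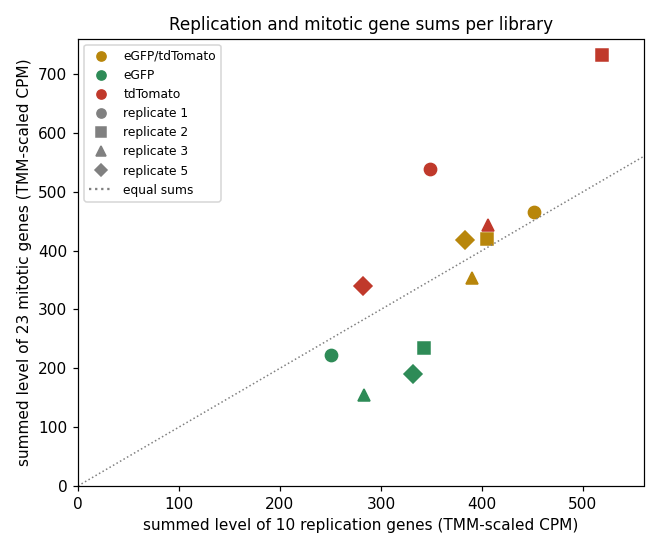
Summed level of the 10 replication genes (x axis) against the summed level of the 23 mitotic genes (y axis), both in TMM-scaled CPM and from 0, with 1 point per library. The dotted line marks equal sums: the 4 eGFP libraries lie below it (mitotic sums of 154 to 235 CPM), the 4 tdTomato libraries above it and the eGFP/tdTomato libraries close to it.

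Among the G1 genes, Ccnd2 was higher and Ccnd1 lower in both fractions with eGFP than in the tdTomato fraction. Both are D cyclins, which couple outside signals to entry into the cycle. Ccnd2 (chr6:127125162-127152193, minus strand) had 521, 498.5, 497 and 454 CPM in the eGFP/tdTomato libraries, 321, 371, 378 and 326 CPM in the eGFP libraries and 20.5, 41.6, 18.5 and 12.5 CPM in the tdTomato libraries. No fraction overlapped with another, and the log2 fold change was 4.40 ± 0.31 with both reporters against tdTomato (edgeR adjusted p = 3.01e-08) and 3.90 ± 0.31 for eGFP against tdTomato (7.84e-08). With both reporters against eGFP it was 0.50 ± 0.27 and not called (0.656). Ccnd1 (chr7:144929931-144939925, minus strand) had 7.77, 8.05, 8.81 and 7.26 CPM in the eGFP/tdTomato libraries, 3.96, 7.53, 4.59 and 7.28 CPM in the eGFP libraries and 34.7, 66.2, 42.6 and 27.1 CPM in the tdTomato libraries. It was lower in both other fractions than in tdTomato, by -2.42 ± 0.29 with both reporters (edgeR adjusted p = 7.31e-06) and by -2.87 ± 0.29 with eGFP (1.37e-06).

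Per kilobase of exon, Ccnd2 made up 85.5% ± 2.92 of the 3 D cyclins in the eGFP/tdTomato fraction, 83.1% ± 2.81 with eGFP alone and 14.5% ± 2.99 with tdTomato alone (SD, n = 4 each). Ccnd1 made up 2.76% ± 0.124, 2.79% ± 0.896 and 54.8% ± 2.09 in the same order. The rest was Ccnd3, which was not called in any comparison. All D cyclins together reached 61.3 ± 2.65 CPM per kilobase with both reporters, 44.7 ± 4.96 with eGFP and 16.4 ± 5.89 with tdTomato. Exons of Ccnd1 overlap the gene LTO1 on the other strand over 23.4% of their length, and the strand setting of the counting is not given in the sources used here.

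Cdk4, the kinase partner of the D cyclins, was lower in both fractions with eGFP than in the tdTomato fraction. It had 126, 130.5, 184 and 145 CPM in the eGFP/tdTomato libraries, 67.2, 126, 177 and 127 CPM in the eGFP libraries and 368, 374, 455 and 297 CPM in the tdTomato libraries. The differences were -1.35 ± 0.25 with both reporters against tdTomato (edgeR adjusted p = 0.00061) and -1.59 ± 0.25 for eGFP against tdTomato (0.000134). Cdk6, its close relative, was higher with both reporters than with tdTomato (1.21 ± 0.29), yet per kilobase Cdk4 held 89.4% to 94.1% of the sum of the pair in the eGFP/tdTomato libraries, 84.3% to 95.7% in the eGFP libraries and 97.6% to 99.2% in the tdTomato libraries. Cdk2, the kinase of the E and A cyclins, was higher by 1.79 ± 0.23 with both reporters than with tdTomato and by 1.56 ± 0.23 with eGFP than with tdTomato (edgeR adjusted p = 2.09e-05 and 7.15e-05). Cdk4 shares 19.7% of its exon length with Tspan31 on the other strand.

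The E cyclins were low in all fractions. Ccne1 had 7.84, 9.05, 9.45 and 7.41 CPM in the eGFP/tdTomato libraries, 5.13, 4.20, 3.95 and 5.09 CPM in the eGFP libraries and 4.41, 7.61, 9.30 and 6.20 CPM in the tdTomato libraries. The eGFP libraries lay below all eGFP/tdTomato libraries, but no comparison was called in the main fit (0.88 ± 0.26 with both reporters against eGFP, edgeR adjusted p = 0.112). DESeq2 called Ccne1 higher with both reporters than with eGFP (adjusted p = 0.0304) and lower with eGFP than with tdTomato (0.0393). Of 24 other settings, 1 called the first of these differences and 7 the second. Ccne2 was not called in any comparison.

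**Figure D4:**
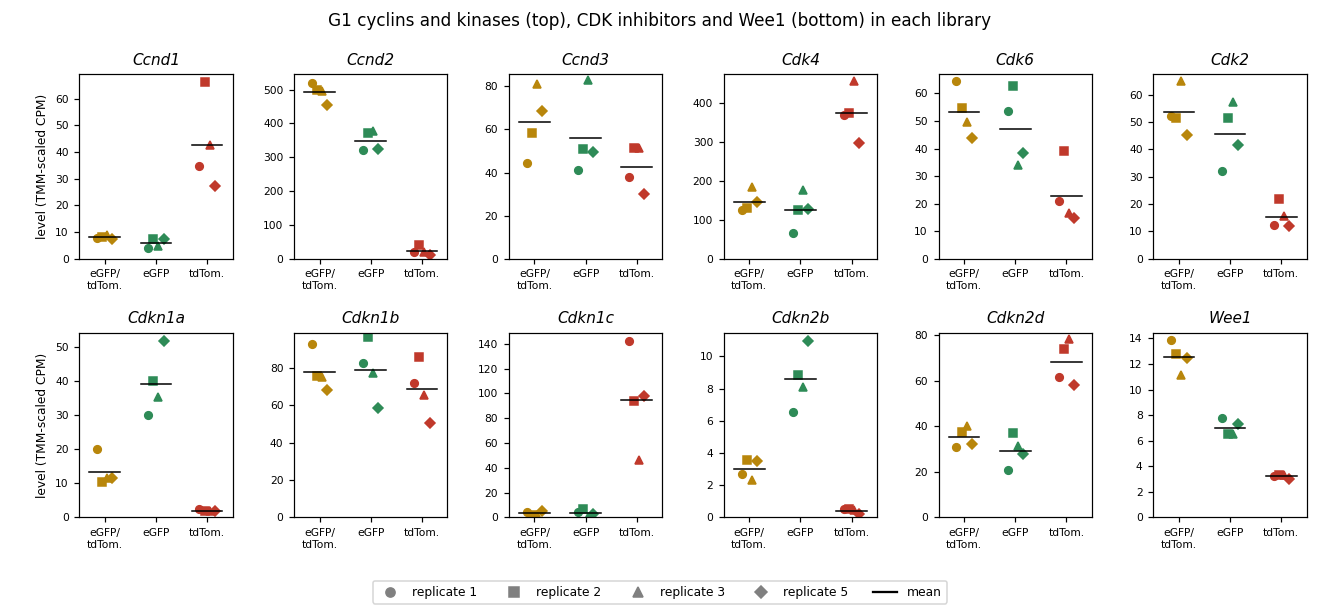
Levels in TMM-scaled CPM (y axis, linear from 0, with its own scale per gene) of the D cyclins, Cdk4, Cdk6 and Cdk2 in the top row and of 5 CDK inhibitors and Wee1 in the bottom row, in the eGFP/tdTomato, eGFP and tdTomato fractions (x axis). Each point is 1 library, its shape gives the replicate number and the line is the mean of 4. Ccnd2 and Cdkn1a were lowest in tdTomato (12.5 to 41.6 CPM and 1.81 to 2.495 CPM), and Ccnd1, Cdk4 and Cdkn1c highest there.

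Of the CDK inhibitors, Cdkn1a was called in all 3 comparisons, as Ube2c was among the mitotic genes. It encodes p21, a target of p53 that blocks CDK2 and binds PCNA. Cdkn1a (chr17:29090976-29100727, plus strand) had 20.2, 10.5, 11.5 and 11.4 CPM in the eGFP/tdTomato libraries, 29.9, 39.9, 35.4 and 51.7 CPM in the eGFP libraries and 2.495, 1.86, 1.97 and 1.81 CPM in the tdTomato libraries. No fraction overlapped with another; over all genes tested, 4.18% lay wholly below eGFP with both reporters, and 20.6% with both reporters and 19.6% with eGFP lay wholly above tdTomato. The log2 fold change was -1.55 ± 0.24 with both reporters against eGFP (edgeR adjusted p = 0.0021), 2.72 ± 0.26 with both reporters against tdTomato (8.08e-07) and 4.27 ± 0.28 for eGFP against tdTomato (1.1e-08). The first of these missed the threshold when all libraries numbered 2 (0.05) or all numbered 5 (0.066) were left out. Microglial, ependymal and mural markers, given above, were also lower with both reporters than with eGFP, and their part was not tested.

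Cdkn1b, which encodes p27, was not called in any comparison, and the pair summed to 91.3 ± 14.8 CPM with both reporters, 118 ± 12.3 CPM with eGFP and 70.6 ± 14.8 CPM with tdTomato (SD, n = 4 each). Cdkn1b had 92.7, 75.6, 75.2 and 68.1 CPM in the eGFP/tdTomato libraries, 82.7, 96.6, 77.5 and 58.6 CPM in the eGFP libraries and 71.8, 86.1, 65.8 and 50.6 CPM in the tdTomato libraries. The ranges overlapped throughout, and the log2 fold changes were -0.02 ± 0.20, 0.18 ± 0.20 and 0.20 ± 0.20 in the 3 comparisons.

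Of 5 further CDK inhibitors 4 were tested, and Cdkn2a did not pass the filter. Cdkn1c, which encodes p57, had 4.57, 2.15, 2.11 and 4.93 CPM with both reporters, 4.07, 6.65, 0.677 and 2.38 CPM with eGFP and 142, 93.6, 46.2 and 97.6 CPM with tdTomato. It was lower in both other fractions than in tdTomato, by -4.78 ± 0.56 and -4.80 ± 0.57 (edgeR adjusted p = 7.23e-06 and 6.73e-06). Cdkn2b, which encodes p15, changed in the same directions as Cdkn1a, at -1.51 ± 0.34 with both reporters against eGFP (edgeR adjusted p = 0.0243) and 4.32 ± 0.39 for eGFP against tdTomato (3.22e-07). Cdkn2d, which encodes p19, was lower than in tdTomato by -0.95 ± 0.19 with both reporters and by -1.21 ± 0.19 with eGFP. Per kilobase, Cdkn1c made up 3.39% ± 1.49 of the 6 inhibitors with both reporters, 2.94% ± 1.93 with eGFP and 42.2% ± 12.7 with tdTomato, and Cdkn1a made up 7.52% ± 2.16, 19.9% ± 4.53 and 0.536% ± 0.0659.

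A list of 12 other p53 targets was read beside Cdkn1a. With both reporters against eGFP 0 of the 12 were called by edgeR in either direction (median 0.21), and 2 had an unadjusted p under 0.05. Against tdTomato 2 rose and 3 fell with both reporters, where 16.8% of all genes rose and 12.4% fell. With eGFP 2 rose and 6 fell, where 20.4% of all genes rose and 14.9% fell. The shares of the list that rose were no higher than those of all genes. Btg2, an antiproliferative gene, was higher by 5.68 ± 0.37 with both reporters and by 6.28 ± 0.38 with eGFP, Phlda3, an inhibitor of AKT signalling, was lower, at -3.41 ± 0.20 and -3.66 ± 0.20 and the kinase gene Plk2 was higher by 1.59 ± 0.28 and 1.75 ± 0.28.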

How the data were processed

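RNA of 12 libraries was sequenced on a BGISEQ-500, per the labels' protocols. The deposited values are raw HTSeq counts per gene, made from STAR alignments to GRCm38, per the submitters' processing notes. Versions, annotation release and strand setting are not given in the sources used here. Lines that name no gene were left out of library sizes, and between 28.5% and 64.0% of reads fell in genes. GENCODE M21 supplied symbols, positions and exon lengths for 53360 of 53465 identifiers. The 37 mitochondrial genes are listed at 0.

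The 12 libraries entered 1 edgeR 4.0.16 quasi-likelihood fit (R 4.3.3, TMM scaling, filterByExpr by fraction, robust), tested on simulated data, with Benjamini-Hochberg adjustment over 29361 genes and a threshold of 0.05. Levels are TMM-scaled CPM, and levels per kilobase divide by union exon length. Sums and shares carry no test. How many animals stand behind a library is not stated, so p-values cover only library-to-library spread, which may be technical. The 41 genes, the lists and the markers were chosen with earlier results of these data known. Genes given value by value were 15 members chosen by function and, in each comparison, the 2 members with the largest called change each way. Outside that rule, Cdc20 and, from the other lists, E2f8 and Cdkn1c were also given library by library. From each other list, up to 3 called genes per comparison with at least 5 mean CPM were named. Alternatives were DESeq2's size factors, no filter, at least 1 CPM in 4 libraries, DESeq2 1.42.0, limma-voom 3.58.1, a replicate block, the share of reads outside genes as a covariate, the compared fractions alone, and leaving out libraries. Processed pseudogenes could take reads from 2 members: Pcna-ps2 held 10.5% and Ccnb2-ps 17.4% of the counts of Pcna and Ccnb2. Genes on the other strand overlap 11.1% to 23.4% of the exons of Ccnd1, Ube2c, Cdk4, Ccne2, Ccna2 and Prc1, whose counts are less certain. Some results are not reported here.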

Additional observations from a re-analysis of the deposited data

Results flagged for a closer look

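Among 135 groups of 4 libraries (the members and class sums in each fraction), 6 held a library apart from the other 3, where chance gives about 1 in 20, or 6.8. In the eGFP/tdTomato fraction, replicate 1 was high in Rrm2 (61.0 CPM, others 38.1 to 39.6), in Cenpf, a kinetochore protein (35.1 CPM, others 27.6 to 28.8), and in Cdkn1a (20.2 CPM, others 10.5 to 11.5). In the eGFP fraction, replicate 3 was low in Ccnb1 (5.91 CPM, others 13.8 to 14.6), and replicate 1 was high in Cenpe, a kinetochore motor (17.1 CPM, others 7.16 to 7.998). The sum of the 2 CDK inhibitors was high in eGFP replicate 2 (136.5 CPM, others 110.3 to 112.9).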

How the results depend on the processing

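No called gene among the 41 changed sign under any setting, while 19 values that were not called did. With both reporters against eGFP, replication genes called higher (0) were 1 without the filter, with 1 CPM in 4 libraries, with limma-voom, with the covariate and with the compared fractions alone, and 2 with DESeq2. Mitotic genes called higher (8) were 13 with DESeq2 and 5 with the compared fractions alone. All members called higher (8) were 16 with DESeq2. Against tdTomato, replication genes called higher with both reporters (2) were 1 under DESeq2's size factors, 0 without the filter and 1 with the compared fractions alone. Mitotic genes called lower (2) were 4 with 1 CPM in 4 libraries, 1 with the covariate and 5 with the compared fractions alone. All members called higher (5) were 3 without the filter, and lower (6) were 10 with the compared fractions alone. For eGFP against tdTomato, replication genes called higher (1) were 0 under DESeq2's size factors, without the filter and with the compared fractions alone. Over all genes, those called higher with both reporters than with eGFP (239) were 549 with DESeq2 and 479 with the covariate, and those called lower (491) were 949 with DESeq2. The summed level of the CDK inhibitors in the eGFP fraction (118 CPM) was 134.4 CPM without TMM factors. The causes were not tested.

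Same-numbered libraries deviated together with r between -0.226 and 0.596, over 0.1 in 8 of 12 pairs. Libraries of unlike number reached similar values, such as 0.566 for eGFP replicate 1 with tdTomato replicate 5. These values therefore cannot decide whether the numbers are pairs, and the block is given as an alternative to the main fit. With the replicate block, 2 replication, 13 mitotic and 15 of all members were called higher with both reporters than with eGFP (566 of all genes), and 3 libraries correlated best with their own number. The block called Rrm2 (1.35, edgeR adjusted p = 0.00885), Mcm5 (0.95, 0.0266) and Mki67 (1.30, 0.00325), which were not called without it. Overlap of libraries without TMM factors was looked at after seeing the data.

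Leaving out 1 library gave 3 to 11 mitotic genes higher with both reporters than with eGFP, and 3 without eGFP replicate 5. Leaving out the 3 libraries of a number gave 1 to 5, and 1 without number 1 or number 5. Against tdTomato, leaving out 1 library gave 0 to 2 replication genes higher, 1 to 3 lower and 0 to 5 mitotic genes lower with both reporters. For eGFP against tdTomato it gave 0 to 1 replication gene higher and 4 to 6 lower. Depth limits the low members, since Aurkb had 24 counts in eGFP replicate 3.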
